A study of Homo sapiens with 12 samples.

Results

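The 31 genes described here encode enzymes that make cholesterol and fatty acids and proteins that control them. They are not all genes of these pathways, and the counts below cover the 31 alone. They were chosen by gene symbol from 19907 symbols in the RNA-seq files. The rule held no measured value, but the list was drawn up with earlier results of these data known. Each of the 12 libraries held all 31 symbols. All 31 were among the 18579 genes with enough reads to be tested (at least 10 reads summed over the libraries). Grouped by role, 7 belong to the mevalonate arm, 11 carry squalene to cholesterol, 5 control the pathway or move sterols, and 8 make, elongate or desaturate fatty acids.

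Cholesterol is built from acetyl-CoA through mevalonate, isoprenoids, squalene and a series of sterols, and fatty acids are built from the same acetyl-CoA by way of malonyl-CoA. Both routes are under the sterol regulatory element-binding proteins (SREBPs), membrane-bound transcription factors encoded by SREBF1 and SREBF2. When sterols in the endoplasmic reticulum are low, SCAP escorts the SREBPs to the Golgi, where proteases release the part that enters the nucleus and switches on the genes of synthesis and uptake. When sterols are high, INSIG1 holds SCAP back. INSIG1 is itself an SREBP target, and its mRNA is widely used as a readout of the pathway. Rapidly dividing tumour cells draw on this supply for their membranes.

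The cells were MDA-MB-231, an established human line of triple-negative breast cancer that expresses the glucocorticoid receptor (GR). The wt-GR cells were a non-targeted clone recovered from the CRISPR-edited population, and the S134A-GR cells were clone #1, in which both alleles of GR carried alanine in place of Ser134, a residue that is phosphorylated by p38 MAPK under stress. Each genotype was thus represented by a single clone, so that an effect of the substitution and a difference between clones cannot be told apart. All groups were starved for 18 h in IMEM with 1% DCC, serum stripped with charcoal, which removes steroids and other lipids. They were then kept for 6 h with vehicle or with TGFβ1 at 10 ng/mL. Each of the 4 groups had 3 libraries, and nothing in the labels says that these came from separate cultures, so that the p-values measure the spread between these libraries, which may be technical.

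Depth ran from 56.4 to 129.8 M reads a library, recovered from the deposited values by taking the smallest value above 0 as 1 read. Each total exceeded the average number of reads that the paper reports per sample, and the reason is not known. The values are normalised counts, in which 3 reads were worth at most 4.89 units. GR mRNA (NR3C1) was detected in all libraries, at 8336 to 9398 normalised counts in S134A-GR cells and 10444 to 12729 in wt-GR cells, and the substitution itself cannot be seen in such counts. The TGFβ1 target SMAD7 rose by 1.19 in the wt-GR line and by 1.32 in S134A-GR cells on the log2 scale. All 6 marker genes of this mesenchymal line (VIM, CD44, AXL, CAV1, MSN, KRT18) were present. Under vehicle CAV1 (−0.70 ± 0.035), MSN (−0.23 ± 0.038) and KRT18 (−0.21 ± 0.052) were lower in S134A-GR cells. VIM, CD44 and AXL did not pass the test there. Of the luminal markers, ESR1 and CDH1 were near 0 whereas GATA3, FOXA1 and EPCAM were present, and they differed in direction. Under vehicle EPCAM was lower in S134A-GR cells (−1.44 ± 0.10), whereas GATA3 (0.43 ± 0.08, adjusted p = 0.000396) and FOXA1 (0.34 ± 0.11, adjusted p = 0.0231) were higher. The 5 luminal markers summed to 1857 to 2109 normalised counts in wt-GR libraries and 1394 to 1862 in S134A-GR libraries, and the part of these differences in the results below was not tested. The 3 adipocyte markers (ADIPOQ, PLIN1, LEP), of interest because fat cells express many of the same enzymes, summed to at most 58.8, and the leukocyte marker PTPRC to at most 9.80. The 3 fibroblast markers summed to 1846 to 4010, with DCN and LUM near 0 and PDGFRB present, and the endothelial PECAM1 and VWF summed to 907 to 1867.

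Divided by the length of the transcript, the levels of the members spanned a wide range. SCD, the desaturase that makes oleate from stearate, was the highest at 34092 normalised counts per kilobase, as a mean over the 12 libraries. ACLY, which releases acetyl-CoA from citrate, followed at 19780.0, FDPS, which makes farnesyl diphosphate, at 18931, FADS2, the first desaturase of polyunsaturated fatty acid synthesis, at 17309 and INSIG1 at 12318. At the lower end were SC5D at 547, TM7SF2 at 491 and ACACA, acetyl-CoA carboxylase alpha, at 62.7. The lowest value of any member in any library was 301.6 normalised counts, for ACACA.

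The promoters of the members were searched for sequence features that the choice by symbol did not use. SREBPs are known to act beside NF-Y, a factor that binds CCAAT, so CCAAT and 2 motifs that SREBPs bind were looked up on both strands in RefSeq promoter windows (GRCh38.p14, the 250 bases before each annotated start), which were given for 27 of the 31 members with 37 windows. The table held no entry for ACAT2, FDFT1, SQLE or FASN. CCAAT, on either strand, was present in 24 of the 37 windows (64.9%) and in 20 of the 27 genes, as against 32.0% of all 35116 windows, and the remaining 7 genes with a window lacked it. These shares are a description and were not tested. The sterol regulatory element in the form TCACNCCAC was found in 1 member window (2.70%) and in 0.883% of all windows. The E-box CACGTG, which SREBPs also bind, was found in 4 member windows, those of INSIG1, SCAP and SC5D (10.8%), as against 6.35% of all. Windows of a gene can overlap, and the 2 windows of SC5D held the same E-box. The CCAAT sites of SC5D and ACLY were likewise each counted in 2 windows. Other forms of these sites were not searched, and a match is a stretch of letters and not a measured binding site. The sites of members that the results below turn on are shown from 5′ to 3′ on the gene's own strand, with the motif in capitals (CCAAT, or ATTGG where it lies on the opposite strand), and the last line is the sterol element upstream of SREBF2:
INSIG1, chr7:155297696-155297724, plus strand: cgccggcctcccATTGGttgcggccgcct
HMGCS1, chr5:43313551-43313579, minus strand: agtttccttttgATTGGtagaagccggac
MSMO1, chr4:165327581-165327609, plus strand: caactgcacagaCCAATcaccgcgccgag
TM7SF2, chr11:65111786-65111814, plus strand: ccccgagcgccgATTGGctggtgtgctgg
LSS, chr21:46228908-46228936, minus strand: cgcggcgctctgATTGGttgcgtgggcgt
SC5D, chr11:121292703-121292731, plus strand: cgccggtcgctgATTGGctggccgctcca
DHCR7, chr11:71448471-71448499, minus strand: caggctcctcgaCCAATcacggggcgcgg
STARD4, chr5:111512680-111512708, minus strand: atttatcggccaCCAATcagccctccaca
SCD, chr10:100347035-100347063, plus strand: aattcccttcggCCAATgacgagccggag
ACLY, chr17:41919029-41919057, minus strand: gaacgcgtgtggCCAATcgcggggccgtt
SREBF2, chr22:41832960-41832992, plus strand: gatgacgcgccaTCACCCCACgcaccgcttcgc

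The windows of PMVK, CYP51A1, SREBF1, FADS1, FADS2 and ELOVL6 held none of the 3 motifs in these letters. They include members with some of the greatest differences between the lines (FADS1, FADS2) and the member that was higher (PMVK). CCAAT was also found upstream of MVK, MVD, NSDHL, HSD17B7, EBP and ACACA, which are all of the members with a window whose differences under vehicle did not pass the test (below).

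The first comparison asked whether the members stood at the same level in the 2 lines without TGFβ1. Most of the members were lower in S134A-GR cells. Of the 31 members, 23 were lower, 1 was higher (PMVK) and 7 did not pass the test, with a median log2 difference of −0.50 and a range from −1.24 to 0.33. A call here is an adjusted p under 0.05 from limma with Benjamini-Hochberg adjustment over all 18579 genes, at any fold change. By the same rule 26.5% of all genes were lower and 25.0% were higher, and the median over all genes was 0.019. Among the 9994 genes expressed at or above the mean of the lowest member, 37.9% were lower. These shares are a description, since the members were chosen with earlier results of these data known. The shift was visible in each S134A-GR vehicle library, where the median member stood 0.42 to 0.62 log2 units below the wt-GR vehicle mean. In the wt-GR vehicle libraries it stood within 0.043 of that mean, which is their own. In the wt-GR TGFβ1 libraries, which are not part of the mean, it stood 0.014 to 0.076 below. In the S134A-GR TGFβ1 libraries it stood 0.40 to 0.46 below. The differences were moderate in size, and SC5D and FADS2 were the 2 members that were lower by at least 1 log2 unit, where 4.45% of all genes were.

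**Figure D1:**
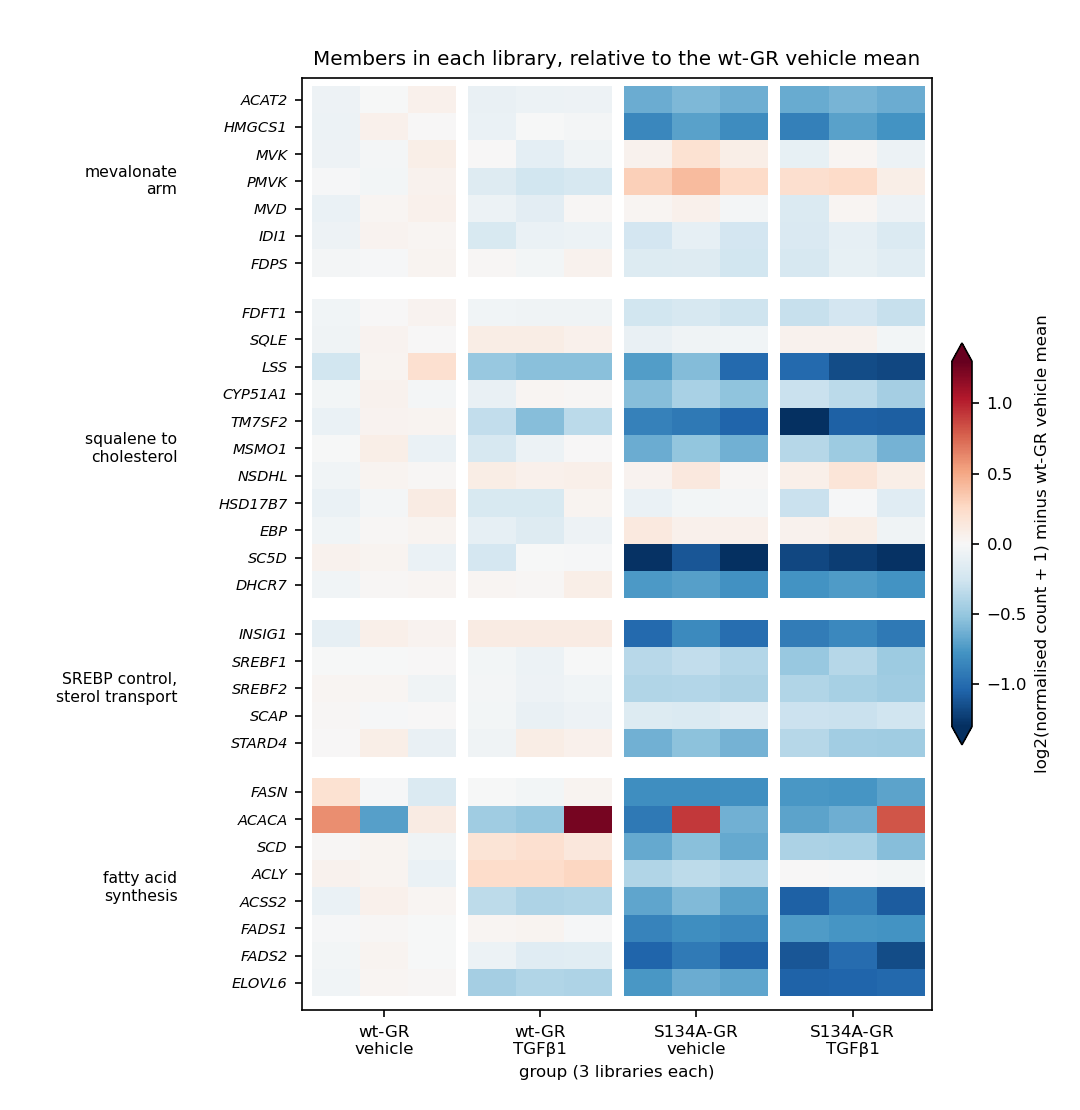
Each row is a member gene and each column a library (3 per group); colour gives log2 of the normalised count plus 1, minus the mean of the wt-GR vehicle libraries. The S134A-GR columns are blue for most rows under both treatments, PMVK is red, and ACACA changes colour between libraries of the same group.

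The second comparison set the lines against each other under TGFβ1, in 6 other libraries of the same clones. The picture was close to that under vehicle. Here 22 members were lower, 2 were higher (PMVK and EBP) and 7 did not pass the test, with a median log2 difference of −0.39. All 22 were also among the 23 that were lower under vehicle, and IDI1 was the one that dropped out (−0.20 ± 0.047 under vehicle and −0.043 ± 0.047 under TGFβ1). Of all genes, 25.7% were lower and 23.1% were higher, with 36.1% lower among the 9994 genes at or above the lowest member. SC5D and INSIG1 were lower by at least 1 log2 unit, where 4.58% of all genes were.

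**Figure D2:**
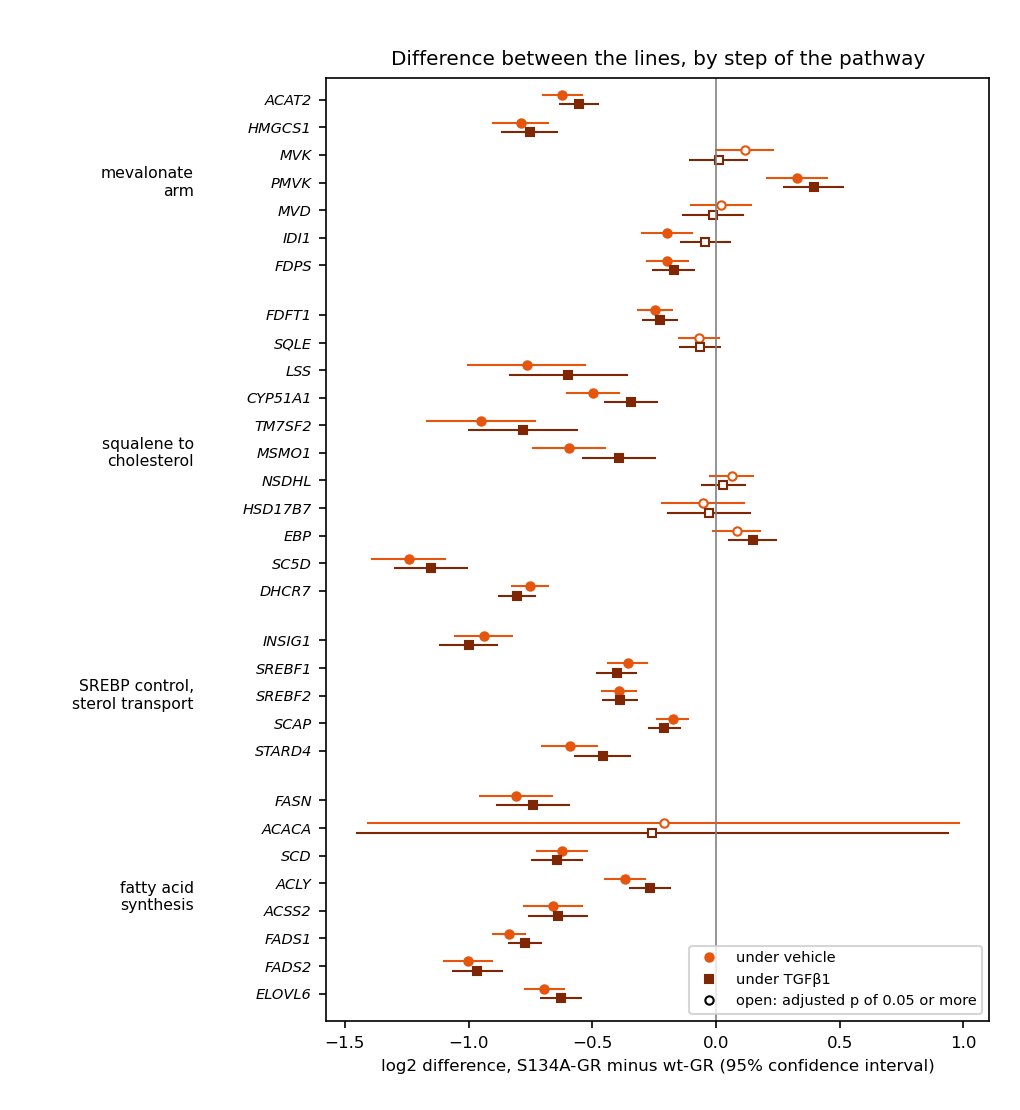
Points are log2 differences, S134A-GR minus wt-GR, with 95% confidence intervals for each member under vehicle (circles) and TGFβ1 (squares), ordered by step of the pathway; open symbols did not pass the test. Most points lie left of 0 under both treatments, PMVK lies to the right, and the interval of ACACA spans from −1.41 to 0.98 under vehicle.

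In the mevalonate arm, ACAT2 and HMGCS1 at its start were lower in S134A-GR cells, and none of MVK, PMVK and MVD was. ACAT2, the cytosolic thiolase that joins 2 acetyl-CoA, was lower at 9151 ± 208 as against 14079.5 ± 637 normalised counts under vehicle (SD, n = 3), a log2 difference of −0.62 ± 0.036 (SE) with an adjusted p of 7.14e-09. HMGCS1, the cytosolic HMG-CoA synthase, was lower by more, at 21213 ± 1064 as against 36663 ± 1821 (−0.79 ± 0.052, adjusted p = 2.23e-08), and under TGFβ1 its difference was −0.75 ± 0.052. Of the 3 enzymes that turn mevalonate into isopentenyl diphosphate, the kinase MVK (0.12 ± 0.053) and the decarboxylase MVD (0.021 ± 0.057) did not pass the test under vehicle. Phosphomevalonate kinase, PMVK, was higher. PMVK read 2193, 2161 and 2312 normalised counts in the wt-GR vehicle libraries and 2763, 2964 and 2645 in the S134A-GR vehicle libraries. Under TGFβ1 PMVK read 1974, 1863 and 1914 in the wt-GR line and 2585, 2631 and 2351 in S134A-GR cells. The S134A-GR libraries were the higher ones under each treatment with no overlap, and the log2 differences were 0.33 ± 0.056 (adjusted p = 0.000203) and 0.39 ± 0.056 (adjusted p = 4.29e-05). Downstream, IDI1, the isopentenyl diphosphate isomerase, and FDPS were lower under vehicle by a small amount, with −0.20 ± 0.047 (adjusted p = 0.00244) and −0.20 ± 0.038 (adjusted p = 0.000589). In all, 4 of 7 members of the arm were lower and 1 was higher under vehicle, and 3 were lower and 1 was higher under TGFβ1, where the median of the arm was −0.043. The shares lower among genes at or above the lowest member level, 37.9% and 36.1%, stand beside these small counts.

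From squalene onwards, 7 of 11 members were lower in S134A-GR cells under each treatment, and these included the greatest difference among the members. Of all genes, 26.5% were lower under vehicle and 25.7% under TGFβ1, or 37.9% and 36.1% of those at or above the lowest member level. SC5D, the sterol C5-desaturase that acts just before the last step, read 5561, 5483 and 5037 normalised counts in the wt-GR vehicle libraries and 2197, 2471 and 2133 in the S134A-GR ones. Under TGFβ1 the SC5D values were 4584, 5352 and 5302 in the wt-GR line and 2364, 2279 and 2199 in S134A-GR cells. Every S134A-GR library lay below every wt-GR library. The log2 difference was −1.24 ± 0.068 under vehicle (adjusted p = 4.00e-09) and −1.15 ± 0.068 under TGFβ1 (adjusted p = 9.13e-09). DHCR7, the reductase of the last step to cholesterol, read 26033, 27134 and 27327 in the wt-GR line and 16036, 16286 and 15516 in S134A-GR cells under vehicle. Under TGFβ1 DHCR7 read 27282, 27041 and 28531 for wt-GR and 15694, 16138 and 15649 for S134A-GR. The groups were again far apart, with differences of −0.75 ± 0.034 (adjusted p = 6.23e-10) and −0.80 ± 0.034 (adjusted p = 3.51e-10). TM7SF2, a sterol C14-reductase of low abundance, read 1077, 1181 and 1166 in the wt-GR line and 620.2, 598 and 553 in S134A-GR cells under vehicle, and 913, 778 and 896 for wt-GR and 421, 548 and 544 for S134A-GR under TGFβ1. It differed by −0.95 ± 0.10 (adjusted p = 2.51e-06) and −0.78 ± 0.10 (adjusted p = 1.82e-05).

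The other lower members of this segment were LSS, the cyclase that makes lanosterol (−0.77 ± 0.11 under vehicle, adjusted p = 4.28e-05), the C4-methyl oxidase MSMO1 (−0.59 ± 0.068, adjusted p = 5.01e-06), the lanosterol demethylase CYP51A1 (−0.50 ± 0.049, adjusted p = 1.14e-06) and FDFT1, squalene synthase (−0.25 ± 0.032, adjusted p = 1.68e-05). SQLE, squalene epoxidase and a rate-limiting step of the pathway, did not follow them. It read 7852 ± 279 in the wt-GR line and 7490.0 ± 150 in S134A-GR cells under vehicle, a difference of −0.068 with a 95% confidence interval of −0.15 to 0.013 (adjusted p = 0.153). NSDHL and HSD17B7, which with MSMO1 remove the C4 methyl groups, did not pass the test either (0.064, interval −0.022 to 0.15, and −0.051, interval −0.22 to 0.11). The isomerase EBP read 6092, 5867 and 6286 in the wt-GR line and 6851, 7018 and 6364 in S134A-GR cells under TGFβ1, values that did not overlap, and it was higher by 0.15 ± 0.044 (adjusted p = 0.0117). That call was lost without replicate 2 of either group (adjusted p = 0.0557 and 0.0593), and under vehicle the difference was 0.084 ± 0.044 (adjusted p = 0.128).

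All 5 members that control the pathway or move sterols were lower in S134A-GR cells under both treatments. Of all genes 26.5% and 25.7% were lower, and 37.9% and 36.1% of those at or above the lowest member level. INSIG1 led the 5 members. In wt-GR cells INSIG1 read 42157, 47994 and 47031 normalised counts under vehicle and 49094, 49060.0 and 49277 under TGFβ1. In S134A-GR cells it read 22721, 25789 and 23013 under vehicle and 24251, 25479.7 and 23983 under TGFβ1. The highest S134A-GR library was below the lowest wt-GR library by a wide margin, with differences of −0.94 ± 0.053 (adjusted p = 5.17e-09) and −1.0005 ± 0.053 (adjusted p = 3.15e-09). The transcription factor genes themselves were lower by less. SREBF2, whose product drives mainly the sterol genes, read 24143 ± 229 as against 31716 ± 977 under vehicle (−0.39 ± 0.032, adjusted p = 1.78e-07), and SREBF1, which drives mainly the fatty acid genes, read 15787 ± 390 as against 20202 ± 121 (−0.36 ± 0.037, adjusted p = 1.89e-06). The counts do not separate the SREBP1a and SREBP1c forms of SREBF1, and they say nothing of the processed proteins. SCAP differed by −0.17 ± 0.029 (adjusted p = 0.000167), and STARD4, a carrier that moves cholesterol between membranes, by −0.59 ± 0.052 (adjusted p = 3.82e-07).

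The fatty acid genes were lower in 7 of 8 cases under each treatment, and their median difference under vehicle, −0.68, was below that of the mevalonate arm (−0.20), of the steps from squalene (−0.50) and of the control genes (−0.39). No test was made between these medians. The shares of lower genes to set beside the 7 of 8 are again 26.5% and 25.7% over all genes. At or above the lowest member level they are 37.9% and 36.1%. FADS2, which introduces the Δ6 double bond into essential fatty acids, read 72482, 76174 and 73793 normalised counts in the wt-GR line and 36140.5, 39196 and 35759.9 in S134A-GR cells under vehicle. Under TGFβ1 FADS2 read 70258, 66522 and 67169 for wt-GR and 34379, 37037 and 33114 for S134A-GR. The S134A-GR libraries lay far below the wt-GR ones, at 0.499 of their level in the fit under vehicle, and the log2 differences were −1.003 ± 0.046 (adjusted p = 7.32e-10) and −0.97 ± 0.046 (adjusted p = 1.13e-09). FADS1, the Δ5 desaturase that acts after it, was lower, with a difference of −0.84 ± 0.03 (adjusted p = 6.53e-11). FASN, fatty acid synthase, read 63298 ± 210 as against 111468 ± 15142 under vehicle (−0.81 ± 0.068, adjusted p = 2.48e-07). The elongase ELOVL6 (−0.69 ± 0.037), the acetyl-CoA synthetase ACSS2 (−0.66 ± 0.055) and SCD (−0.62 ± 0.047) followed, and ACLY was lower by least (−0.37 ± 0.038, adjusted p = 1.66e-06).

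ACACA, the committed step of fatty acid synthesis, gave no usable comparison. Its libraries read 877, 349.8 and 619 in wt-GR cells under vehicle, 417, 405 and 1359 in wt-GR cells under TGFβ1, 302, 1087 and 372 in S134A-GR cells under vehicle and 356, 371 and 1016 in S134A-GR cells under TGFβ1. The values scattered widely within each group, and the groups overlapped in each comparison, with an SD inside the groups of 0.89 in log2 units, where the members other than LSS lay between 0.019 and 0.14. The second most variable was LSS, at 0.17. These 2 genes also stand apart in the hg38 sequence. Of the 75-base stretches of their reference transcripts that lie within an exon, 97.4% for ACACA and 92.7% for LSS occur a second time, letter for letter, on an alternate scaffold, and no other member exceeded 0.31%. Reads from such stretches are lost or split if the index used for alignment held those scaffolds, which the sources do not state, and their part in the scatter was not tested. For HSD17B7, 27 of 90 such stretches occur elsewhere on the main chromosomes, as against 5.76% for CYP51A1 and at most 3.33% for the others.

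**Figure D3:**
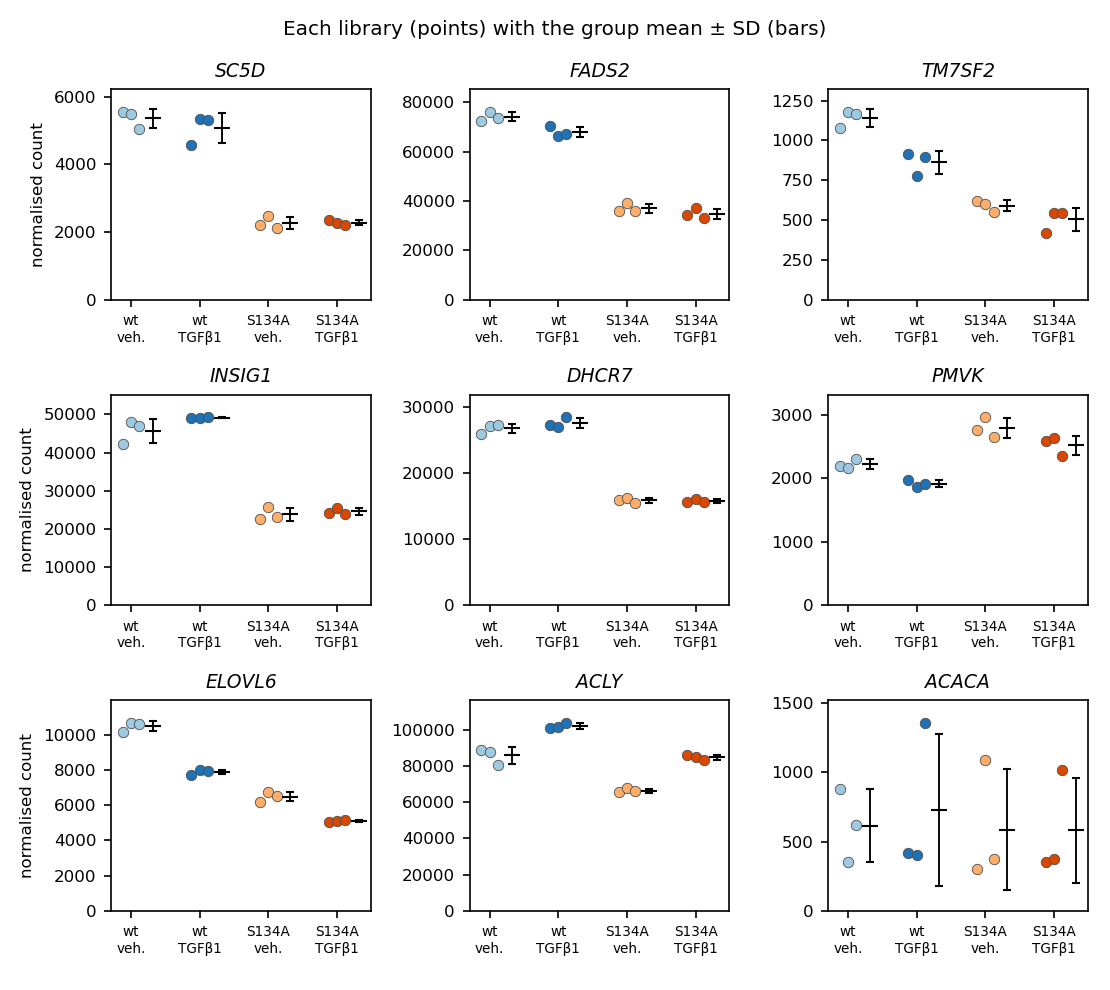
Normalised counts of 9 members in each library (points) with the group mean ± SD (bars), on linear axes from 0. SC5D, FADS2, TM7SF2, INSIG1 and DHCR7 are lower in both S134A-GR groups, PMVK is higher, ELOVL6 and ACLY also move with TGFβ1, and ACACA scatters within its groups.

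Because each genotype was 1 clone, the position of the members on the chromosomes was set beside their differences. For each member the median log2 difference under vehicle was taken over its nearest genes, up to 20 on each side, members left out, with GENCODE 44 positions and a mean level of at least 50. The median over all 12254 such genes was −0.015. In hg38 SC5D lies at chr11:121292681-121313410, FADS2 at chr11:61792980-61867354, INSIG1 at chr7:155297776-155310235 and PMVK at chr1:154924740-154936719. Around the 5 members on chromosome 11 the neighbours were lower too, with medians of −0.49 around SC5D, −0.40 around DHCR7, −0.31 around FADS1 and FADS2 and −0.30 around TM7SF2. Elsewhere they were lower around STARD4 (−0.22), LSS (−0.18), ACAT2 (−0.18), CYP51A1 (−0.15) and HMGCS1 (−0.15). Around INSIG1 (chromosome 7) and SCD (chromosome 10) they were higher, at 0.29 and 0.32, and likewise around ELOVL6 (chromosome 4, 0.22). They were also higher around members that differed little or were higher, namely IDI1 (0.37), MVD (0.31), EBP (0.29), PMVK (0.21), MVK (0.21), FDPS (0.21) and NSDHL (0.20). Around FASN (chromosome 17) and ACSS2 (chromosome 20) they lay near 0, at −0.036 and 0.094. The 14 members whose neighbours had a median below 0 differed by a median of −0.76, and the 17 whose neighbours had a median above 0 by −0.20. In all, 30 of the 31 members were below the median of their neighbours, by a median of 0.40, and PMVK was the one above it. Of all 12254 genes 50.2% were below the median of their own neighbours, and of the 9412 among them at or above the lowest member level 54.3% were. Outside chromosome 11, 18 of 26 members were called lower under vehicle, with a median of −0.36. Of all genes 26.5% were lower, and 37.9% of those at or above the lowest member level. Copy number was not measured here, and the part of the surroundings in the members' differences was not tested.

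**Figure D4:**
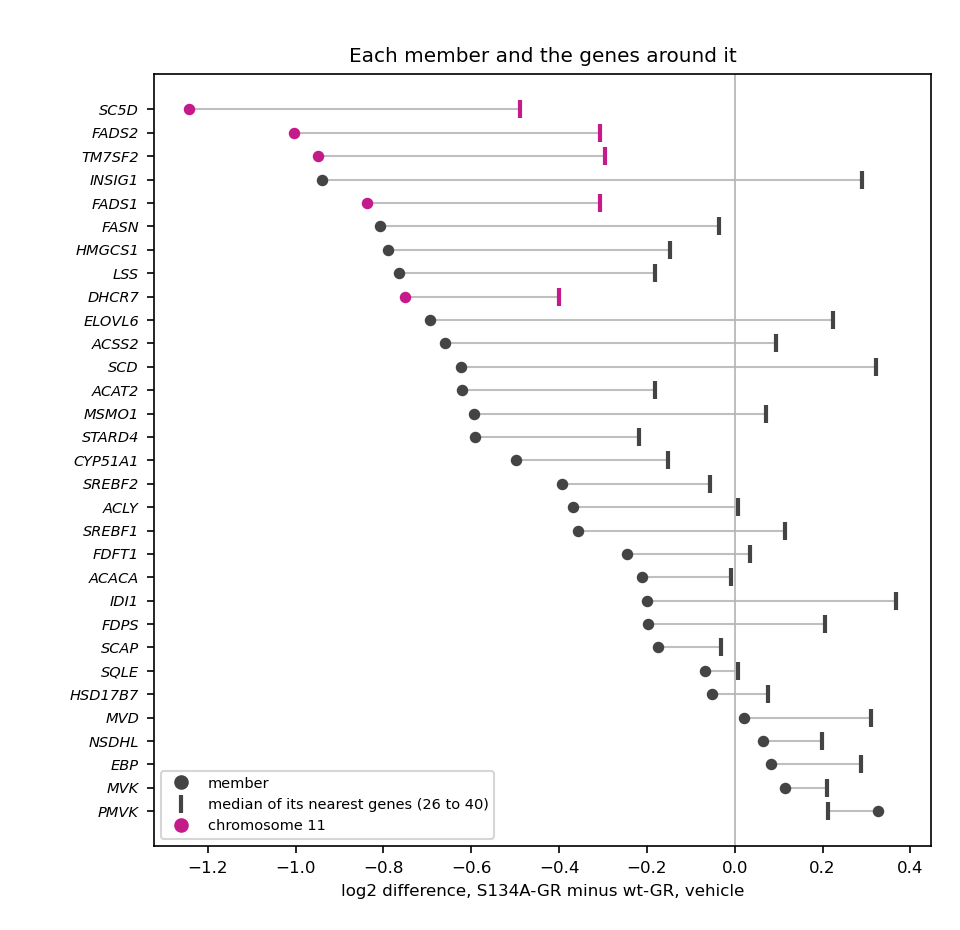
For each member, the dot is its log2 difference, S134A-GR minus wt-GR under vehicle, and the bar is the median of its 26 to 40 nearest genes; members on chromosome 11 are pink. Dots lie left of their bars for all members but PMVK, while the bars lie left of 0 on chromosome 11 and right of 0 for INSIG1, SCD and ELOVL6.

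FADS1 and FADS2 share a cluster on chromosome 11, where 32 of their 40 nearest genes had a log2 difference below 0 under vehicle (median −0.31). Of all 18579 genes tested, 8951 had. FADS3, another desaturase gene of the same cluster on chromosome 11, read 4761, 4985 and 5405 normalised counts in the wt-GR line and 5855, 5693 and 5744 in S134A-GR cells under vehicle. It was higher in S134A-GR cells by 0.19 ± 0.058 (adjusted p = 0.0123), where FADS1 and FADS2 were lower. Under TGFβ1 its difference was 0.066 ± 0.058 (adjusted p = 0.376). The call under vehicle was lost without wt-GR vehicle replicate 1 (adjusted p = 0.0542), and FADS3 was singled out after its values were seen. The part of position in the differences of these genes was not tested.

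The next comparisons asked how the pathway responded to 6 h of TGFβ1 in each line. A minority of members changed, in both directions, and the shares of all genes are given beside the counts. In wt-GR cells 5 members fell (LSS, ELOVL6, TM7SF2, ACSS2, PMVK) and 2 rose (ACLY, SCD), with a median of −0.055 over the members. By the same test 9.82% of all genes fell and 11.2% rose. In S134A-GR cells 5 members fell (LSS, ACSS2, ELOVL6, MVK, SCAP) and 3 rose (ACLY, STARD4, SCD), with a median of −0.011, and 8.69% of all genes fell and 10.0% rose. LSS, ELOVL6 and ACSS2 fell in both lines, and ACLY and SCD rose in both. The counts rested on some single libraries, since 4 members passed in wt-GR cells without TGFβ1 replicate 2, and in S134A-GR cells 3 passed without its vehicle replicate 1, 4 without its vehicle replicate 3 or TGFβ1 replicate 1, and 5 without its TGFβ1 replicate 2 or wt-GR TGFβ1 replicate 3.

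ELOVL6 fell with the lowest adjusted p in wt-GR cells. It read 10154, 10684 and 10585 normalised counts under vehicle and 7734, 7977 and 7917 under TGFβ1 in wt-GR cells. In S134A-GR cells it read 6189.8, 6719 and 6517 under vehicle and 5042, 5103 and 5155 under TGFβ1. No vehicle library overlapped a TGFβ1 library of its line, and the responses were −0.41 ± 0.037 (adjusted p = 1.75e-06) and −0.34 ± 0.037 (adjusted p = 1.29e-05). ACSS2 moved alike. It read 14461, 16109.8 and 15693 under vehicle and 12167, 11684 and 11786 under TGFβ1 in wt-GR cells, and 9544, 10314 and 9417 under vehicle and 7361, 8300.2 and 7271 under TGFβ1 in S134A-GR cells. These again did not overlap within a line, with responses of −0.38 ± 0.055 (adjusted p = 0.000192) and −0.35 ± 0.055 (adjusted p = 0.000371).

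Among the sterol genes LSS and TM7SF2 fell in wt-GR cells. LSS read 5049, 6123 and 6918 under vehicle and 4264, 4105 and 4102 under TGFβ1 in wt-GR cells, where the vehicle libraries scattered but stayed above the TGFβ1 ones (−0.52 ± 0.11, adjusted p = 0.00334). In S134A-GR cells LSS read 3610.0, 4059 and 2969 under vehicle and 2962, 2669.9 and 2626 under TGFβ1 (−0.36 ± 0.11, adjusted p = 0.0365), and this call was lost with a replicate block (adjusted p = 0.0544). For TM7SF2 the values given above did not overlap between treatments in either line, and the responses were −0.41 ± 0.10 (adjusted p = 0.0106) in the wt-GR line and −0.24 ± 0.10 (adjusted p = 0.13) in the S134A-GR line. The first was lost without TGFβ1 replicate 2 of wt-GR cells (adjusted p = 0.0542), as were those of PMVK (adjusted p = 0.0569) and SCD (adjusted p = 0.0554) in wt-GR cells below. PMVK fell by 0.21 ± 0.056 in wt-GR cells (adjusted p = 0.0144), against −0.15 ± 0.056 in S134A-GR cells (adjusted p = 0.0899). SCAP fell by 0.10 ± 0.029 in S134A-GR cells (adjusted p = 0.0279), against −0.065 ± 0.029 in wt-GR cells (adjusted p = 0.142), and this call was lost when any of 5 of the 6 S134A-GR libraries was left out (adjusted p up to 0.0981).

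ACLY and SCD went up. ACLY read 89154, 87898 and 80806 under vehicle and 101259, 101596 and 104056 under TGFβ1 in wt-GR cells. In S134A-GR cells it read 65654, 67735 and 66047 under vehicle and 86305, 84935 and 83534 under TGFβ1. The S134A-GR cells under TGFβ1 thus came to the range of wt-GR cells under vehicle, and the responses were 0.25 ± 0.038 (adjusted p = 0.000227) and 0.35 ± 0.038 (adjusted p = 1.19e-05). SCD read 206042, 209344 and 196693 under vehicle and 230869, 235284 and 226196 under TGFβ1 in wt-GR cells, with no overlap (0.18 ± 0.047, adjusted p = 0.0146). In S134A-GR cells SCD read 128383, 139989 and 128914 under vehicle and 152907, 152644 and 138502 under TGFβ1, where 1 TGFβ1 library lay below the highest vehicle library (0.16 ± 0.047, adjusted p = 0.0285). STARD4 and MVK also passed in S134A-GR cells. STARD4 rose from 4989.9, 5308 and 5034 to 5954, 5636 and 5596 (0.16 ± 0.052, adjusted p = 0.0399), and MVK fell from 8020.2, 8843 and 8152 to 7128, 7853 and 7315 (−0.17 ± 0.053, adjusted p = 0.043). The treatments did not overlap for either gene, but MVK lost its call with a replicate block (adjusted p = 0.06) and STARD4 with TMM scaling (adjusted p = 0.0535). When the S134A-GR groups alone were fitted, LSS, MVK and SCD lost theirs (adjusted p = 0.107, 0.0939 and 0.115). When single libraries were left out, the calls in S134A-GR cells were lost in 8 of 12 cases for LSS, 7 for MVK, 6 for STARD4 and 4 for SCD, with adjusted p-values up to 0.16, 0.179, 0.135 and 0.118. INSIG1 and SREBF2 did not pass the test in either line, with responses of 0.11 and 0.045 for INSIG1 and −0.043 and −0.037 for SREBF2.

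**Figure D5:**
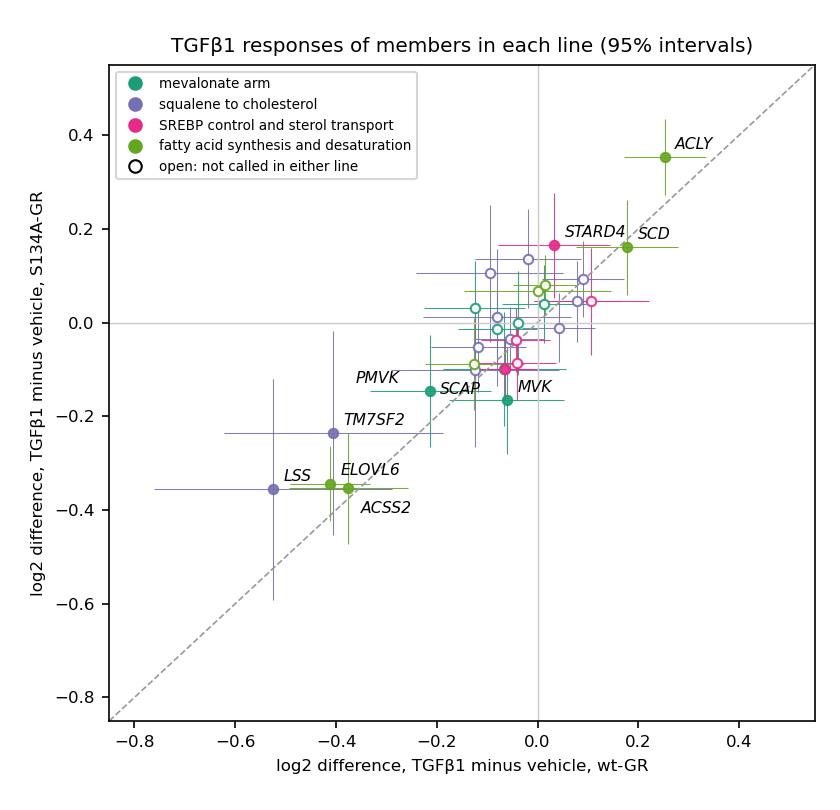
TGFβ1 minus vehicle on the log2 scale for 30 members (ACACA is left out because of its width), wt-GR on the horizontal and S134A-GR on the vertical axis, with 95% intervals; named points passed the test in at least 1 line. LSS, ELOVL6, ACSS2 and TM7SF2 lie at the lower left, ACLY and SCD at the upper right, and the points keep near the dashed line of equal response.

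The last comparison asked whether the TGFβ1 response of a member differed between the lines. None of the 31 did, with limma or with edgeR and DESeq2 on the recovered reads, where 0.414% of all genes (77) did with limma. That background count moved with the tool and the libraries, to 208 with DESeq2, 22 without wt-GR TGFβ1 replicate 1 and 166 without wt-GR vehicle replicate 3. The number of members with an unadjusted p under 0.05 was 2 with limma, 0 with edgeR and 3 with DESeq2, and the lowest adjusted p with limma was 0.498. The differences, S134A-GR minus wt-GR, ran from −0.10 (MVK) to 0.20 (MSMO1). With ACACA left out, the 95% intervals of the members reached from −0.27 to 0.50 at the widest.

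Genes around the pathway gave a more mixed picture. Of 46 further genes of lipid metabolism that were tested, 26 were lower in S134A-GR cells under vehicle and 7 were higher, with a median of −0.16, and under TGFβ1 24 were lower and 7 higher. Over all genes 26.5% were lower and 25.0% were higher under vehicle, and 25.7% and 23.1% under TGFβ1. Among genes at or above the lowest member level 37.9% and 36.1% were lower, and several of the lists below lie near these shares. Of 6 other genes of SREBP processing, 4 were lower and 1 was higher under each treatment. Of 6 LXR receptors and targets, genes that respond to surplus sterol, 5 were lower under each treatment. The LXR target ABCG1, a cholesterol exporter, read 24.4, 27.5 and 14.7 normalised counts in wt-GR cells under vehicle, whereas in S134A-GR cells it was at 0 in 2 vehicle libraries and at 0.891, a single read, in the third, and it read 0, 0 and 1.43 under TGFβ1. Of 7 genes of sterol uptake, storage and transport, 4 were lower under vehicle and 2 under TGFβ1, and SCARB1, the HDL receptor, was higher by 0.42 ± 0.031 (adjusted p = 6.53e-08) and 0.30 ± 0.031 (adjusted p = 2.01e-06). Of 7 tested genes of the isoprenoid branches, 3 were lower and 1 was higher under each treatment. The isomerase IDI2 was higher under TGFβ1 (0.31 ± 0.12, adjusted p = 0.0407, with −0.021 ± 0.12 and 0.895 under vehicle), a call that was lost when any of 6 single libraries was left out (adjusted p up to 0.134).

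Of 12 other genes of fatty acid supply, elongation and desaturation, 7 were lower and 3 higher under vehicle, and 6 and 2 under TGFβ1. HSD17B12, a ketoacyl reductase of the elongation cycle, read 11681, 12193 and 11436 in the wt-GR line and 5908, 6290.1 and 5919.9 in S134A-GR cells under vehicle, with no overlap (−0.96 ± 0.042, adjusted p = 4.23e-10). ACACB, the acetyl-CoA carboxylase of the mitochondrial surface that restrains fatty acid oxidation, went the other way. It read 1160.1, 1097 and 1073 for wt-GR and 1701, 1623 and 1795 for S134A-GR under vehicle and was higher in S134A-GR cells by 0.62 ± 0.066 (adjusted p = 2.63e-06) and, under TGFβ1, by 0.72 ± 0.066 (adjusted p = 6.74e-07). No neighbour medians were taken for HSD17B12, ACACB or the other genes outside the members. Of 8 acyl-CoA synthetases and genes of glycerolipid assembly, 3 were lower and 1 was higher under vehicle, and 4 and 2 under TGFβ1. Of all genes 26.5% were lower and 25.0% higher under vehicle, and 25.7% and 23.1% under TGFβ1. At or above the lowest member level, 37.9% and 36.1% were lower.

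TGFβ1 raised 12 and lowered 8 of the 46 in the wt-GR line and raised 10 and lowered 4 in S134A-GR cells, where 11.2% and 10.0% of all genes rose and 9.82% and 8.69% fell. ACACB fell by 0.62 ± 0.066 (adjusted p = 9.49e-06) and fell by 0.52 ± 0.066 (adjusted p = 6.19e-05) in wt-GR and S134A-GR cells in turn, and so did the acyl-CoA synthetase ACSL1, which fell by 0.52 ± 0.047 (adjusted p = 1.69e-06) and fell by 0.29 ± 0.047 (adjusted p = 0.000468). ACSL4, the synthetase that prefers arachidonate, rose in S134A-GR cells by 0.41 ± 0.057 (adjusted p = 0.000147) and in wt-GR cells by 0.26 ± 0.057 (adjusted p = 0.00536). The exporter ABCA1 rose by 0.44 ± 0.14 (adjusted p = 0.0402) and 0.54 ± 0.14 (adjusted p = 0.0158), and the calls were lost in 8 and 2 of the 12 cases of leaving out a library, with adjusted p-values up to 0.137 and 0.0693. That in wt-GR cells was also lost with DESeq2 (adjusted p = 0.0846) and when its groups alone were fitted (adjusted p = 0.137). NPC2, the lysosomal protein that hands cholesterol to NPC1, was the 1 gene of the 46 whose response passed the test of a difference between the lines (−0.38 ± 0.075, adjusted p = 0.0446). That call was lost with a replicate block (adjusted p = 0.0822), with no filter on low counts (adjusted p = 0.0556) and when any of 11 of the 12 libraries was left out. NPC2 rose from 14071, 14584 and 15783 to 22136, 21127 and 19992 in wt-GR cells (0.51 ± 0.053, adjusted p = 7.96e-06), with 16114, 16415 and 15502 under vehicle and 17934, 18295 and 16292 under TGFβ1 in S134A-GR cells (0.13 ± 0.053, adjusted p = 0.12).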

How the data were processed

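Poly(A) RNA of MDA-MB-231 cells was sequenced (TruSeq, 75-base paired ends) in 12 libraries. Per the labels and the study's methods, the authors used Trimmomatic for trimming, HISAT2 for alignment (hg38) and featureCounts (Subread) for gene counts, and divided these by DESeq2 (1.22.2) size factors. The deposited normalised counts are thus a signal and not raw counts, although 100% of values were whole multiples of 1 read (tolerance 0.01), and whole reads were recovered from them for the count models. The annotation and strand setting are not given in the sources used here. Genes with at least 10 reads in all were kept, and log2(normalised count + 1) was fitted with limma 3.58.1 (R 4.3.3; 4 group means, trended empirical Bayes, Benjamini-Hochberg adjustment over 18579 genes). Fold changes are on that scale, and errors are SE for differences and SD for levels. Alternatives were edgeR 4.0.16, DESeq2 1.42.0, TMM scaling, other pseudocounts and filters, a replicate block, and leaving out each library. The fit was checked on simulated counts. The members and gene lists were chosen with earlier results of these data known. Members are given with each library's value where they were among the 4 largest changes per direction and comparison, and other pathway genes are named where among the 2 largest. Genes at or above the lowest member level, the neighbouring genes, the repeated 75-base stretches and the motifs were looked at after the data were seen. Gene lengths and positions came from GENCODE 44, and promoters from RefSeq.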

Additional observations from a re-analysis of the deposited data

Results flagged for a closer look

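Outside the 31 members, the response to TGFβ1 differed between the lines for 3 of the pathway, marker and treatment genes looked at here, by the test of that difference. NPC2, a lysosomal carrier of cholesterol, rose in wt-GR cells by 0.51 ± 0.053 on the log2 scale, against 0.13 ± 0.053 in S134A-GR cells, which did not pass the test, a difference of −0.38 (limma, adjusted p = 0.0446). The call was lost with no filter on low counts (adjusted p = 0.0556), with the replicate number as a block (adjusted p = 0.0822) and when any of 11 of the 12 libraries was left out (adjusted p = 0.0544 to 0.162), and it held without vehicle replicate 3 of wt-GR cells. PMEPA1, a TGFβ1 target used to check the treatment, read 5093, 4588 and 4487 normalised counts under vehicle and 36441, 35409 and 33922 under TGFβ1 in wt-GR cells. In S134A-GR cells it read 4369.7, 4528 and 4204 under vehicle and 20685, 20344 and 18576 under TGFβ1. It rose in both lines, by 2.90 ± 0.053 and 2.18 ± 0.053, and the responses differed by −0.72 (limma, adjusted p = 0.000909). PDGFRB, a receptor gene of fibroblasts that was looked at as a marker, read 2182, 2135 and 2111 under vehicle and 3940.4, 3717 and 4006 under TGFβ1 in wt-GR cells. In S134A-GR cells PDGFRB read 1844, 1952 and 1939 under vehicle and 2179, 2277 and 2041 under TGFβ1. Its responses were 0.86 ± 0.05 (adjusted p = 1.84e-08) and 0.18 ± 0.05 (adjusted p = 0.0213), which differed by −0.68 (limma, adjusted p = 0.000909). Groups held 3 libraries each, so that no library was tested as standing apart within its group.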

How the results depend on the processing

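Between the lines, the number of members called was 24 under vehicle and 24 under TGFβ1. It stayed between 23 and 25 with edgeR, DESeq2, TMM scaling, pseudocounts of 0.5 and 16, other filters, a fit of the compared groups alone, a replicate block and each library left out (24 to 25 under vehicle, 23 to 24 under TGFβ1). When an absolute log2 difference of 1 or more was required as well, 2 members were called under vehicle and 2 under TGFβ1, and 0 were called for TGFβ1 in either line (0 and 0). The TGFβ1 counts depended more on the libraries, with 7 members called in wt-GR cells (4 to 8 when 1 library was left out) and 8 in S134A-GR cells (3 to 8), or 5 in S134A-GR cells when its own groups alone were fitted. The difference of the responses called 0 members in each of these settings except the fit of the compared groups alone, which was not run for it since it needs all 4 groups. Same-numbered replicates did not deviate together (mean r of 0.000251 over 18 pairs, across 13281 genes), so the numbers are not taken as pairs. A replicate block gave 24, 24, 8, 6 and 0 members in the 5 comparisons. For genes named singly, 83 results were recomputed, giving 1740 alternative values: 1667 kept direction and call, 73 lost the call, in 14 of the results, and 0 changed sign. The cause was not tested. TMM moved the median of all genes by at most 0.017. With 3 libraries a group an exact permutation test of 1 gene cannot fall below 0.1.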
